A study of Mus musculus with 12 samples.

Results

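Ter-119+ cells selected from the spleens of mice exposed to acute hypoxia were compared with the same selection from normal mice, over all genes of the nCounter Mouse Immunology v1 panel. The comparison rests on 7 of the series' 12 samples, 4 Acute hypoxia and 3 Normal samples. It tested the 277 of 547 endogenous panel genes that reached a raw count of 20 in at least 3 of those 7 samples, and the other 270 were not tested. Hypoxia mice spent 16 h in a hypobaric chamber at -46 kPa, equal to an altitude above 4500 m, while normal mice stayed under standard conditions. All mice were male F1 (CBA x C57BL/6) adults aged 3 to 5 months, spleens were taken on day 3, and RNA came from 500000 cells per sample. The labels do not say whether a sample is a single animal or a pool, so the p-values reflect only the spread among these samples, which may be technical. A further 4 samples from mice bled of 0.5 to 0.8 mL were used only in a second comparison at the end. Normal 4 was left out here, since its column holds, in each of the 561 genes of the file, the median of Normal 1 to Normal 3 with 3 added.

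In the mouse, low oxygen stabilises the hypoxia-inducible factors, which raise erythropoietin, and the spleen then adds red cell production to that of the marrow. Early erythroblasts take up iron through the transferrin receptor and depend on transcription factors such as Tal1, whereas leukocyte genes are shut down as red cells mature. Ter-119 is a surface antigen of the erythroid lineage carried from early erythroblasts through to mature red cells. Splenic erythroid cells that still carry CD45 have been described as able to influence immune cells, and the title of the series refers to antigen-presenting signatures in them. The nCounter assay counts barcoded probes bound to single RNA molecules, without amplification.

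Total counts were 58739, 44254, 75246 and 81370 in the 4 hypoxia samples, against 43956, 161054 and 253712 in Normal 1, Normal 2 and Normal 3. Between 209 and 253 genes reached a count of 20 in a hypoxia sample, against 216, 359 and 380 in the normal samples. The normal samples differed among themselves. Over the 216 tested genes that reached a count of 20 in each of them, the median raw count was 4.93 times that of Normal 1 in Normal 2 and 7.86 times in Normal 3, yet the raw count of Cd74 was 0.520 and 0.906 times that of Normal 1. The raw ratio of Cd74 to H2-Eb1 was 6.42, 8.04, 6.62 and 5.92 in hypoxia samples, against 4.75, 0.429 and 0.600 in normal samples, so Normal 1 stood with the hypoxia samples on this ratio. Each result that rests on these samples is therefore followed through fits that leave one of them out, and through an added fit with Normal 1 as the only normal sample. That last fit assumes that the lone sample varies like the other groups. With every deeper sample thinned to 43956 counts, 17 genes were called higher and 99 lower, against 18 and 101 on the counts as deposited.

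The labelled cell type could be checked only in part. Of 19 listed erythroid and progenitor genes, 12 were measured and 9 tested, among them Tfrc at raw counts of 113 or more in every sample, while Klf1, Gata1 and Epor were not analysed here. B cell genes were also counted in all 7 samples, such as Ms4a1 at the levels given further on. T cell genes were nearer the lower limit, with Cd3d at 15.2, 18.7, 16.0 and 33.2 in hypoxia samples, against 65.5, 56.7 and 45.3 in normal samples. These levels, and all levels below, are housekeeping-scaled counts: the raw count divided by a sample factor from 6 housekeeping genes. In bulk samples, fewer cells of a type and less RNA per cell cannot be told apart. The part of leukocytes carried through the selection in the differences below was not tested.

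Hypoxia samples had lower scaled counts of many leukocyte genes and higher counts of a small group that holds iron uptake, erythroid and antimicrobial genes. At a Benjamini-Hochberg adjusted p under 0.05, 18 genes were called higher and 101 lower, which is 6.5% and 36.5% of the 277 genes tested. The median log2 fold change over all tested genes was -0.56, and that overall shift depends on the scaling. With TMM factors the median was 0.05, with 56 genes higher (20.2%) and 53 lower (19.1%). Under all 6 scalings tried, 17 genes were called higher (6.14%) and 53 lower (19.1%), and H2-Ea-ps was the one higher call that was not. Below, "under all 6 scalings" marks a gene of this set. The scaled counts of the 4 hypoxia and 3 normal samples did not overlap in 21 genes that stood higher after hypoxia (7.58% of 277) and 99 that stood lower (35.7%). Without Normal 3 the higher calls numbered 10, and with Normal 1 as the only normal sample 4 genes were higher and 30 lower. The lowest hypoxia levels lie near the counting floor: 11 of the 101 lower genes had a raw count under 20 in all 4 hypoxia samples, so their fold changes rest on counts near that floor. The count filter also shapes the calls: 13 tested genes had no hypoxia sample at 20 counts and entered through the normal samples alone, 11 of which were called lower, and Tal1 entered through hypoxia samples alone. In 36 of the 101 lower genes fewer than 3 hypoxia samples reached 20 counts. Counts and medians of the lists below cover tested members only and describe them, and they are not support for a direction. Each list count is to be read beside the 6.5% higher and 36.5% lower of all 277 tested genes. With counts under 20 set to 20, which shrinks such folds by construction, the calls of Stat4, Igf2r, Plau, Prim1, Cd53, Il12a, H2-Ab1, Trem1, Ctsc, Tap1, Ikbke, Stat2, Irf7, Irak4, Cd14, Casp1, Casp8 and Bcl2, among others given below, were lost.

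**Figure D1:**
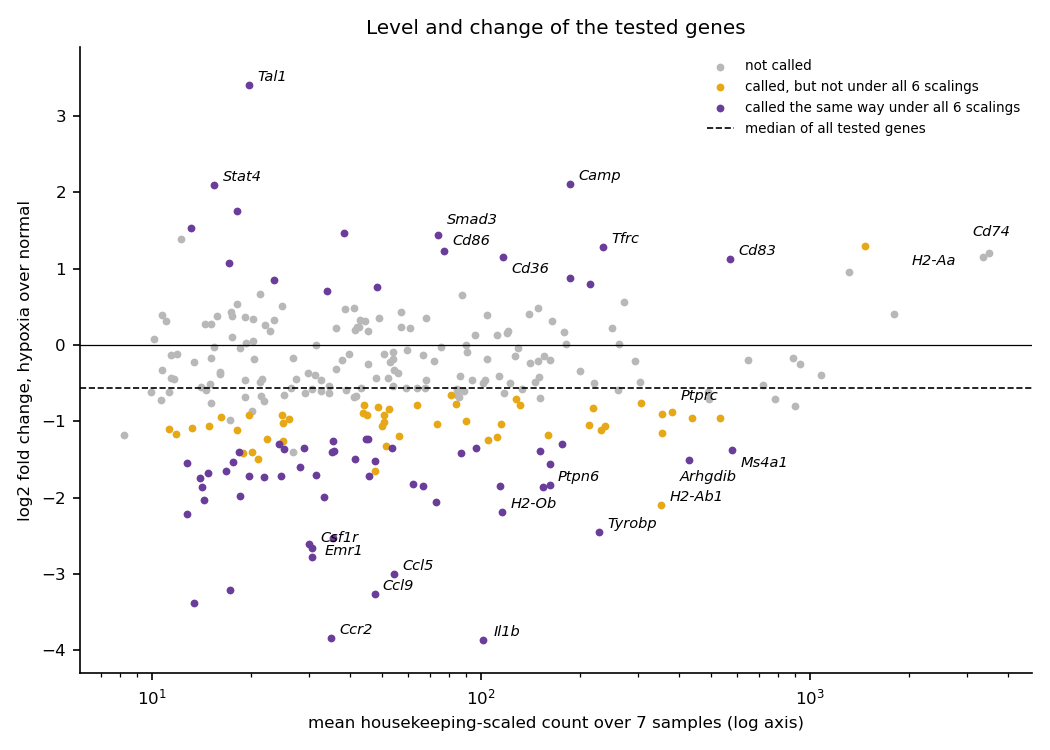
Each point is 1 of the 277 tested genes, with its mean housekeeping-scaled count over the 7 samples on a log x axis and its log2 fold change, hypoxia over normal, on the y axis. Purple points were called the same way under all 6 scalings, orange points were called but not under all 6, and grey points were not called. The dashed line at the median of -0.56 lies below 0, Ccr2 and Il1b are the lowest points, and Tal1 is the highest.

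The erythroid genes Tfrc and Tal1 were higher in hypoxia samples, although Tal1 passed the count filter through those samples alone. Their upstream regions are shown because both were called higher under all 6 scalings and because low-oxygen and GATA factors have known recognition letters. Both come from RefSeq on GRCm38.p6, run from 250 bases before to 50 after the most upstream of 2 annotated starts, and lie on the plus strand, Tfrc at chr16:32608646-32608945 and Tal1 at chr4:115056176-115056475. Capitals mark, on either strand, the hypoxia-response core letters ACGTG and GCGTG and the GATA-type letters AGATAA.
Tfrc: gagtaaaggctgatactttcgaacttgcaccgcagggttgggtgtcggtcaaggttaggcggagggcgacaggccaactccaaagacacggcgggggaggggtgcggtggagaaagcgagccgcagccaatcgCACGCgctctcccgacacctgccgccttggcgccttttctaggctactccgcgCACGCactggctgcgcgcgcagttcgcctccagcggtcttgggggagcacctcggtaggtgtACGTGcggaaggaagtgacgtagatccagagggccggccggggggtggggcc
Tal1: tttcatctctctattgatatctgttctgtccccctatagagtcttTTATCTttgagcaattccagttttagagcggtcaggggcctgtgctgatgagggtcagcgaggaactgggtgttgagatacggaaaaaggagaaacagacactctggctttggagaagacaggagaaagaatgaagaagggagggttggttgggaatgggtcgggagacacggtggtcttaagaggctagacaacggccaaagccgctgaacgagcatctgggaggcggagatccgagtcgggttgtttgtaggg
The Tfrc window held ACGTG 1 time and GCGTG 2 times, these on the minus strand, where they read CACGC in the printed sequence. The Tal1 window held AGATAA 1 time, on the minus strand, printed as TTATCT. Of 32851 promoter windows of this length in the RefSeq table, 19.6% held ACGTG, 32.4% GCGTG and 11.2% AGATAA on either strand. Such a match is a description of letters and not a site.

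Tfrc, the transferrin receptor of iron uptake, stood at 184, 642, 239 and 193 in hypoxia samples, against 128, 143 and 116 in normal samples. All 4 hypoxia samples lay above all 3 normal samples, and hypoxia 2 stood far above the other hypoxia samples (log2 fold change 1.28 with SE 0.37, adjusted p = 0.00663). Without hypoxia 2 the log2 fold change was 0.67, adjusted p = 0.0774, and the call was lost. Tal1, a transcription factor of erythroid and megakaryocytic precursors, had scaled counts of 7.58, 87.6, 16.5 and 17.4 in hypoxia samples, against 3.39, 3.39 and 2.26 in normal samples. Its raw count in the normal samples was at most 14, so it passed the count filter only through 3 hypoxia samples and was not tested with the filter at 4 samples, and hypoxia 2 was again the highest (log2 fold change 3.41 with SE 0.79, adjusted p = 0.00358). Without hypoxia 2, Tal1 was still called (log2 fold change 2.29, adjusted p = 0.000106). That fit kept the genes tested in the main fit, so for Tal1 it is no separate support for the direction. Cd36, a fatty acid and thrombospondin receptor found on early erythroid cells, platelets and macrophages, was measured at 227, 160.3, 136 and 91.1 in hypoxia samples, against 52.0, 83.5 and 68.4 in normal samples. The groups did not overlap (log2 fold change 1.16 with SE 0.31, adjusted p = 0.00342), and Cd36 kept its call in all 25 alternative settings.

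Of 9 tested erythroid and progenitor genes, these 3 were called higher and 0 lower, with a list median of 0.13 against -0.56 over all tested genes. Abcb10, a mitochondrial transporter needed for haem synthesis, had 4.82, 42.3, 12.6 and 9.0 in hypoxia samples, against 3.39, 9.55 and 4.37 in normal samples. It was not called (log2 fold change 1.39 with SE 0.61, adjusted p = 0.0707), although fits without hypoxia 1, hypoxia 4 or Normal 2 gave adjusted p values of 0.0153, 0.0459 and 0.0488. Under all 5 other scalings it was called higher, with a log2 fold change of 2.05 and adjusted p = 0.0181 by TMM factors. Cd44, an adhesion receptor that declines during erythroid maturation, had the log2 fold change 0.13 (adjusted p = 0.703), and Cd24a, a small surface glycoprotein of erythroid and B cells, gave -0.19 (adjusted p = 0.669). Itga4, the integrin chain through which erythroblasts bind macrophages, was at -0.66 (adjusted p = 0.0745), and was called lower without hypoxia 2 (-0.90, adjusted p = 0.0232) and without Normal 1 (-0.86, adjusted p = 0.0182). Cd164 and Runx1 were not called either, with log2 fold changes of -0.48 and -0.23. With Normal 1 as the only normal sample Cd36 was the one called gene of the list. The mean log2 level of the list was 6.15, 7.37, 6.46 and 6.19 in hypoxia samples, against 5.75, 6.35 and 5.93 in normal samples.

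Of 7 tested genes in the list of hypoxia-inducible factor targets 2 were called, where 43% of all 277 tested genes were. Tfrc was called higher and Itgb2, the beta-2 integrin chain of leukocytes, lower, with a list median of -0.39. Hif1a, the oxygen-regulated subunit itself, is controlled mainly as a protein, and its transcript stood at 31.7, 22.6, 22.3 and 34.3 in hypoxia samples, against 29.4, 45.9 and 33.0 in normal samples. The groups overlapped (log2 fold change -0.39 with SE 0.28, adjusted p = 0.247). Mif, a cytokine and HIF target, gave -0.18 (adjusted p = 0.597), Plaur, the urokinase receptor, gave 0.22 (adjusted p = 0.584, but 0.82 and called higher with TMM factors, adjusted p = 0.0337), and Cxcr4, the receptor for Cxcl12, gave -0.71 (adjusted p = 0.062). Without Normal 1, Cxcr4 was called lower (log2 fold change -0.86, adjusted p = 0.0221). Itgb2 had 15.2, 24.6, 17.1 and 25.9 in hypoxia samples, against 54.2, 63.5 and 46.4 in normal samples, a difference of -1.40 (adjusted p = 0.000186) that was called under all 6 scalings.

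Camp, the cathelicidin peptide of neutrophil granules, was higher in hypoxia samples. Its scaled count was 292, 327, 169 and 331 in hypoxia samples, against 26.0, 92.8 and 70.8 in normal samples, and every hypoxia sample lay above every normal sample. The mean was 4.30-fold higher on the fitted scale (log2 fold change 2.10 with SE 0.37, adjusted p = 5.98e-05), and Camp kept its call in all 25 alternative settings. No other granulocyte gene was called higher. S100a8, a calcium-binding alarmin of neutrophils, had 1029, 749.6, 494 and 1185 in hypoxia samples, against 554, 1397 and 1128 in normal samples (log2 fold change -0.25 with SE 0.41, adjusted p = 0.617). Its partner S100a9 had 1901, 1482, 979 and 2269.8 in hypoxia samples, against 1178, 847 and 549 in normal samples (log2 fold change 0.95 with SE 0.47, adjusted p = 0.098), and was called higher only in some settings, such as the fit without Normal 1 (1.25, adjusted p = 0.0105) and TMM factors (1.47, adjusted p = 0.0281). Trem1, an activating receptor of neutrophils and monocytes, was lower at -1.65 (adjusted p = 0.00129), as was Il1r2, the decoy receptor for interleukin 1, at -1.21 (adjusted p = 0.002). Of 7 tested genes in the granulocyte list, 1 was higher and 2 lower, with a median of -0.50, and without Normal 1 2 were higher and 4 lower. With TMM factors 2 were higher and 1 lower, and Il1r2 was not called (adjusted p = 0.112).

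Costimulatory and checkpoint genes split in direction. Cd86, a ligand that costimulates T cells through Cd28, stood at 137, 116, 97.6 and 56.8 in hypoxia samples, against 55.4, 44.1 and 33.3 in normal samples. Hypoxia 4, the lowest hypoxia sample, was just above Normal 1, the highest normal sample, and the gene was called (log2 fold change 1.23 with SE 0.34, adjusted p = 0.00394). Cd274, the PD-L1 ligand that restrains T cells, stood at 244, 206, 296 and 309 in hypoxia samples, against 91.5, 189 and 169.6 in normal samples. The groups did not overlap (log2 fold change 0.80 with SE 0.29, adjusted p = 0.0266), but the call was lost in the fits without hypoxia 3, hypoxia 4, Normal 1 and Normal 3, where the adjusted p was 0.0728, 0.0568, 0.103 and 0.0526.

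Cd83, a marker of activated dendritic cells and B cells, had 583, 394, 939.7 and 1051 in hypoxia samples, against 605, 254 and 170.2 in normal samples. Normal 1 lay within the hypoxia range (log2 fold change 1.13 with SE 0.39, adjusted p = 0.022), and the call was lost without hypoxia 3, hypoxia 4, Normal 2 or Normal 3, with adjusted p from 0.0549 to 0.148. In the opposite direction, Icosl, the ligand of the T cell receptor Icos, was measured at 21.4, 32.5, 26.2 and 46.7 in hypoxia samples, against 57.6, 158 and 124 in normal samples (log2 fold change -1.85 with SE 0.34, adjusted p = 0.000111). Cd48, an adhesion ligand of T and NK cells, changed by -1.49 (adjusted p = 0.000186) and Btla, an inhibitory receptor of lymphocytes, by -1.03 (adjusted p = 0.00741), where Btla was not called without Normal 2 (adjusted p = 0.0587). Cd40 and Cd80 were not called, at 0.22 and -0.03. With TMM factors Cd40 was called higher (0.84, adjusted p = 0.014) and Btla was not called (-0.42, adjusted p = 0.19), giving 4 higher and 2 lower. Of 9 tested genes in this list 3 were higher and 3 lower, and the list median came to 0.18. With Normal 1 as the only normal sample Cd274 alone of them was called higher and none lower.

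Among signalling genes, Stat4, the transcription factor that carries interleukin 12 signals, had 27.6, 27.5, 22.8 and 14.6 in hypoxia samples, against 4.52, 6.47 and 4.69 in normal samples. The groups did not overlap (log2 fold change 2.09 with SE 0.36, adjusted p = 4.63e-05), but Normal 1 had a raw count of 4, and the call was lost when counts under 20 were set to 20. Smad3, which carries TGF-beta signals to the nucleus, stood at 139.9, 134, 87.3 and 45.0 in hypoxia samples, against 42.9, 39.4 and 30.6 in normal samples. Hypoxia 1 and hypoxia 2 were the highest, and hypoxia 4 came within a few counts of Normal 1 (log2 fold change 1.44 with SE 0.35, adjusted p = 0.00135). Phlpp1, a phosphatase that acts on the kinase Akt, stood at 70.3, 74.8, 47.4 and 19.7 in hypoxia samples, against 18.1, 19.7 and 18.9 in normal samples (log2 fold change 1.46 with SE 0.34, adjusted p = 0.0012). In hypoxia 4 it equalled the normal level. All 3 were called under all 6 scalings.

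Other higher calls were of receptors, a protease, a cytokine chain and a DNA primase. Cd97, an adhesion receptor that binds Cd55, was measured at 288, 203, 236 and 199 in hypoxia samples, against 113, 137 and 127 in normal samples, with no overlap (log2 fold change 0.87 with SE 0.28, adjusted p = 0.0126). Without Normal 3 its adjusted p was 0.0501. Igf2r, the mannose 6-phosphate receptor, had the log2 fold change 1.75 (adjusted p = 0.000653), and Plau, the urokinase plasminogen activator, gave 1.52 (adjusted p = 0.00249). Cd53, a leukocyte tetraspanin, was at 0.75 (adjusted p = 0.0453) and Il12a, a chain of interleukin 12 and interleukin 35, at 0.70 (adjusted p = 0.0401). Prim1, a subunit of the primase that starts DNA replication, was at 0.85 (adjusted p = 0.0401). The calls of Cd53, Il12a and Prim1 lay close to the threshold and were each lost in several fits that left out 1 sample. Among these, Prim1 without hypoxia 2 gave 0.43, adjusted p = 0.283, Cd53 without Normal 3 an adjusted p of 0.121, and Il12a without Normal 3 an adjusted p of 0.173.

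**Figure D2:**
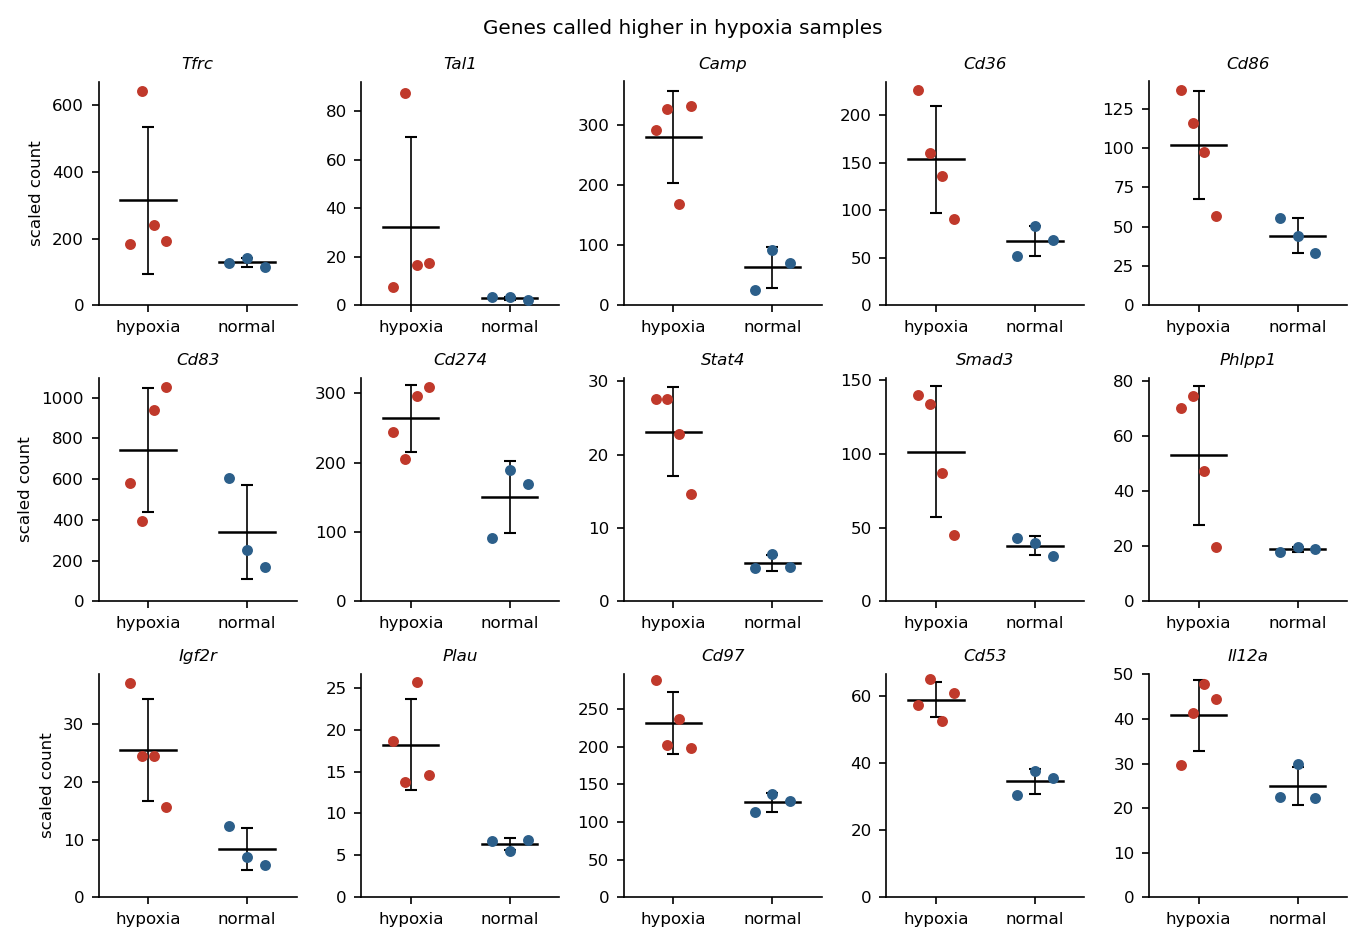
Housekeeping-scaled counts on a linear y axis from 0 in the hypoxia samples (left, n = 4) and the normal samples (right, n = 3) for 15 of the genes called higher; points are samples, the bar is the mean and the whisker 1 SD. Camp, Cd97 and Cd53 separate the groups in every sample, whereas hypoxia 2 carries the highest point of Tfrc and Tal1 and the groups overlap in Cd83 and Il12a.

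Monocyte and macrophage genes were among the largest decreases. Ccr2, the receptor that draws monocytes out of the marrow, stood at 6.20, 3.93, 3.99 and 6.19 in hypoxia samples, against 74.6, 79.8 and 70.0 in normal samples. Its raw count in hypoxia samples was between 4 and 11, and the groups were far apart (log2 fold change -3.84 with SE 0.31, adjusted p = 1.96e-10). Csf1r, the receptor for macrophage colony-stimulating factor, had 8.96, 18.7, 7.42 and 4.50 in hypoxia samples, against 40.7, 74.6 and 59.7 in normal samples. No samples overlapped (log2 fold change -2.66 with SE 0.37, adjusted p = 2.12e-06). Emr1, the F4/80 antigen of macrophages (now Adgre1), had 6.20, 27.5, 7.99 and 7.88 in hypoxia samples, against 45.2, 82.6 and 71.0 in normal samples, where hypoxia 2 was the highest of its group and still below every normal sample (log2 fold change -2.53 with SE 0.37, adjusted p = 5.84e-06). Tgfbi, a matrix protein of monocytes and macrophages, had 8.27, 12.8, 5.71 and 11.8 in hypoxia samples, against 37.3, 72.4 and 61.3 in normal samples (log2 fold change -2.61 with SE 0.36, adjusted p = 1.95e-06). Itgax, the CD11c chain of dendritic cells and macrophages, changed by -2.21 (adjusted p = 0.000172) and Cd14, the lipopolysaccharide co-receptor, by -1.06 (adjusted p = 0.0188). With counts under 20 set to 20, Itgax gave -0.74 (adjusted p = 0.314) and was not called, and with TMM factors Cd14 gave -0.46 (adjusted p = 0.345).

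Of 9 tested macrophage and monocyte genes 6 were lower and 1, Cd36, higher, with a median of -1.65 against -0.56 over all genes. In 4 of the 9, Ccr2, Csf1r, Itgax and Cd14, no hypoxia sample reached 20 counts, so these 4 entered the test through the normal samples alone and the filter fixed their direction. In 6 of the 9, and in 5 of the 6 lower genes, fewer than 3 hypoxia samples reached 20 counts, Emr1 among them. With the filter at 4 samples 2 genes of the list were lower, and with no filter 10 of 18 measured. The mean log2 level of the list was 3.82, 4.20, 3.48 and 3.16 in hypoxia samples, against 4.95, 5.72 and 5.30 in normal samples. The complement chains C1qa and C1qb, made by tissue macrophages, varied widely within both groups: C1qb stood at 22.7, 60.0, 13.7 and 7.88 in hypoxia samples, against 35.0, 115 and 78.1 in normal samples. Its adjusted p was 0.032, and it missed the threshold without hypoxia 1, hypoxia 3, Normal 2 or Normal 3 and with TMM factors (-1.01, adjusted p = 0.158). C1qa was not called (log2 fold change -1.41 with SE 0.58, adjusted p = 0.0658), whereas without hypoxia 2 it gave -2.35, adjusted p = 3.42e-06, and without Normal 1 -1.71, adjusted p = 0.0246. Without hypoxia 1, hypoxia 3 or Normal 2, Cd14 gave adjusted p values of 0.0502, 0.0769 and 0.104. Ccr2, Csf1r, Emr1, Tgfbi and Cd36 kept their calls in all fits that left out 1 sample. Those fits kept the genes tested in the main fit, so for Ccr2 and Csf1r they are no separate support for the direction. Emr1 and Tgfbi had fewer than 3 hypoxia samples at 20 counts. They passed the filter with the help of the normal samples where they are high, so the fits are no separate support for them either.

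Chemokines made by myeloid and T cells were lower as well. Ccl9, a chemokine for dendritic and myeloid cells, had 12.4, 9.84, 9.70 and 9.0 in hypoxia samples, against 59.9, 129 and 103 in normal samples (log2 fold change -3.26 with SE 0.32, adjusted p = 8.77e-09). Ccl5, which attracts T cells and monocytes, had 7.58, 16.7, 14.8 and 15.2 in hypoxia samples, against 111, 115 and 101 in normal samples (log2 fold change -3.00 with SE 0.35, adjusted p = 2.57e-07). Both separated the groups completely. Ccl6 changed by -3.21 (adjusted p = 1.48e-06). Ccl3 stood at 75.8, 68.9, 58.8 and 87.8 in hypoxia samples, against 87.0, 397 and 305 in normal samples, where Normal 1 lay within the hypoxia range (log2 fold change -1.86 with SE 0.34, adjusted p = 9.69e-05). Of 7 tested chemokines 4 were lower and none higher, with a median of -1.86. In 2 of the lower genes, Ccl9 and Ccl6, no hypoxia sample reached 20 counts. They entered the test through the normal samples alone, so the filter fixed their direction. Ccl5 too had fewer than 3 hypoxia samples at 20 counts. Xcl1, Cxcl10 and Ppbp were not called, at -0.60, 0.39 and 0.66, although with TMM factors Cxcl10 (1.00, adjusted p = 0.0474) and Ppbp (1.27, adjusted p = 0.00643) were called higher. Among 9 chemokine receptors 5 were lower and 1 higher. Ccr7, which guides lymphocytes and dendritic cells to lymphoid tissue, had 783, 712, 1126 and 1191 in hypoxia samples, against 1235, 1425 and 1092 in normal samples and was not called (log2 fold change -0.39 with SE 0.36, adjusted p = 0.383). Ccrl2, an atypical chemerin receptor, changed by -1.72 (adjusted p = 0.0125) with Normal 2 and Normal 3 far above Normal 1, and the sign turned with Normal 1 as the only normal sample (0.21, adjusted p = 0.886). Without Normal 2 its adjusted p was 0.0555, and 2 receptors were called lower, against 3 without Normal 3 and 2 with TMM factors.

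The inflammatory mediators Il1b and Ptgs2 were lower too. Il1b, the proinflammatory interleukin 1 beta, stood at 12.4, 10.8, 8.56 and 27.0 in hypoxia samples, against 52.0, 326 and 272 in normal samples (log2 fold change -3.87 with SE 0.56, adjusted p = 0.000111). Every hypoxia sample was below every normal sample, although Normal 1 was far below the other 2 normal samples. Ptgs2, the inducible cyclooxygenase, had 10.3, 6.89, 3.99 and 14.1 in hypoxia samples, against 24.9, 74.6 and 79.2 in normal samples (log2 fold change -2.78 with SE 0.38, adjusted p = 1.95e-06). Ltb, a lymphotoxin chain that organises lymphoid tissue, changed by -1.55 (adjusted p = 0.000186) and Ikbke, a kinase of the interferon and NF-kappaB pathways, by -1.37 (adjusted p = 0.00135). The NF-kappaB subunits and inhibitors did not pass in the housekeeping-scaled test: Nfkb1 gave 0.48 (adjusted p = 0.125), Relb 0.40 (adjusted p = 0.205), Nfkbia -0.14 (adjusted p = 0.698) and Tnfaip3 -0.17 (adjusted p = 0.699). In Nfkb1 the hypoxia samples nevertheless lay above the normal ones, at 165, 179, 195 and 142 in hypoxia samples, against 118, 139.6 and 108 in normal samples. With TMM factors Nfkb1 (1.07, adjusted p = 0.00159) and Relb (0.97, adjusted p = 0.00473) were called higher, as they were with both median-of-ratios scalings. Of 17 tested genes of this list 1, Il12a, was higher and 4 were lower, with a median of -0.25, and with TMM factors 5 were higher and 4 lower. In 3 of the 4 lower genes, Il1b and Ptgs2 among them, fewer than 3 hypoxia samples reached 20 counts. They passed the filter with the help of the normal samples where they are high.

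Fc receptor and ITAM genes, which pass signals from activating receptors, were mostly lower. Tyrobp, the adaptor DAP12 of myeloid and NK cells, stood at 75.1, 89.5, 69.6 and 79.3 in hypoxia samples, against 264, 578 and 442 in normal samples. The hypoxia samples lay close together and below all normal samples (log2 fold change -2.46 with SE 0.32, adjusted p = 1.25e-06). Ptpn6, the phosphatase SHP-1 that restrains receptor signalling in blood cells, had 50.3, 57.1, 74.2 and 126 in hypoxia samples, against 214, 334 and 277 in normal samples (log2 fold change -1.83 with SE 0.29, adjusted p = 2.05e-05), with hypoxia 4 the highest of its group. Fcer1g, the gamma chain shared by Fc receptors, changed by -1.99 (adjusted p = 8.88e-05). Fcgr2b, the inhibitory Fc receptor of B cells and myeloid cells, changed by -1.30 (adjusted p = 0.0019), Btk, a kinase of the B cell receptor, by -1.35 (adjusted p = 0.000804), and Syk, the kinase that binds phosphorylated ITAMs, by -0.76 (adjusted p = 0.0341). Syk was not called without hypoxia 1, hypoxia 2, hypoxia 3, Normal 2 or Normal 3, nor with TMM factors (-0.15, adjusted p = 0.622). Of 8 tested genes 7 were lower and none higher, with a median of -1.50, and 6 were lower under all 6 scalings. With Normal 1 as the only normal sample 2 were lower.

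**Figure D3:**
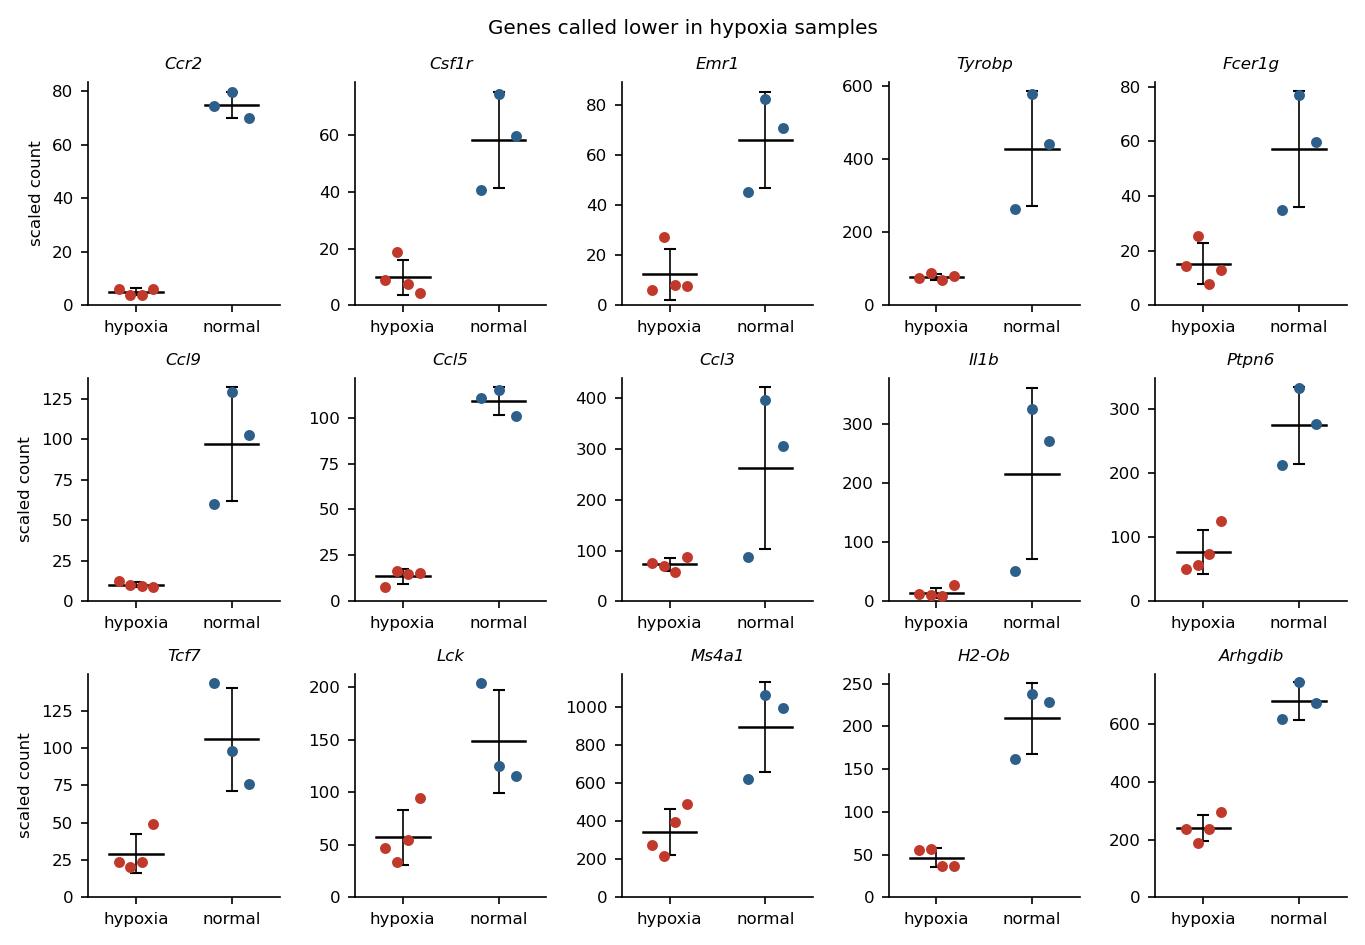
Housekeeping-scaled counts on a linear y axis from 0 in the hypoxia samples (left, n = 4) and the normal samples (right, n = 3) for genes called lower under all 6 scalings; points are samples, the bar is the mean and the whisker 1 SD. Ccr2, Ccl9 and Tyrobp separate the groups in every sample, and in Il1b Normal 1 lies far below the other normal samples. Ccr2, Csf1r and Ccl9 passed the count filter through the normal samples alone.

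T and NK cell genes were low in hypoxia samples and came near the counting floor there. Tcf7, a transcription factor of naive and memory T cells, had 23.4, 20.7, 24.0 and 48.9 in hypoxia samples, against 144, 98.0 and 76.1 in normal samples (log2 fold change -1.81 with SE 0.32, adjusted p = 5.98e-05). Lck, the kinase of the T cell receptor, had 46.9, 33.4, 54.2 and 94.5 in hypoxia samples, against 205, 125 and 116 in normal samples (log2 fold change -1.34 with SE 0.32, adjusted p = 0.00135). In both genes hypoxia 4 was the highest of its group and below all normal samples. Cd4, the helper T cell co-receptor, stood at 9.65, 10.8, 10.3 and 11.3 in hypoxia samples, against 58.8, 29.9 and 22.5 in normal samples (log2 fold change -1.73 with SE 0.34, adjusted p = 0.000214). Thy1, a T cell surface glycoprotein, changed by -1.60 (adjusted p = 0.000158) and Cd3d, a chain of the T cell receptor complex, by -1.39 (adjusted p = 0.00111). Of NK and effector genes, Gzma, a granule protease, changed by -1.98 (adjusted p = 4.27e-05), Prf1, perforin, by -1.53 (adjusted p = 0.000684) and Eomes, a transcription factor of NK and memory T cells, by -1.75 (adjusted p = 0.000857). Il7r, the interleukin 7 receptor chain, changed by -1.86 (adjusted p = 0.000196). Klra8, an NK cell receptor of the Ly49 family that is in no list, had 0.689, 1.97, 2.85 and 4.50 in hypoxia samples, against 28.3, 32.0 and 23.9 in normal samples (log2 fold change -3.37 with SE 0.44, adjusted p = 1.16e-06). No hypoxia sample reached 20 counts of Klra8, so it entered the test through the normal samples alone and the filter fixed its direction. The calls of Gzma, Prf1, Eomes, Il7r and Klra8 were lost when counts under 20 were set to 20.

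Of 22 tested T and NK genes 15 were lower and none higher, with a median of -1.40, and 11 were lower under all 6 scalings. In 16 of the 22 fewer than 3 hypoxia samples reached 20 counts, and 12 of the 15 lower genes are among these, so they passed the filter with the help of the normal samples where they are high. In 3 of them no hypoxia sample reached 20. With the filter at 4 samples 11 were lower, and with no filter 19 of 32 measured. With Normal 1 as the only normal sample 13 were lower. The mean log2 level of the list was 3.72, 3.82, 3.70 and 4.42 in hypoxia samples, against 5.63, 5.27 and 4.98 in normal samples, with hypoxia 4 above the other hypoxia samples. Cd2, an adhesion receptor of T and NK cells, was among those not called: it had 498, 419, 730.3 and 788 in hypoxia samples, against 848, 927 and 843 in normal samples (log2 fold change -0.52 with SE 0.33, adjusted p = 0.199). 

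Several B cell genes were lower and others did not pass the test. Ms4a1, the CD20 antigen, stood at 275, 219, 395 and 489 in hypoxia samples, against 624, 1064 and 997 in normal samples (log2 fold change -1.38 with SE 0.33, adjusted p = 0.00135). Its groups did not overlap. Cd22, an inhibitory co-receptor of the B cell receptor, had 22.1, 17.7, 33.1 and 51.2 in hypoxia samples, against 49.7, 185 and 152 in normal samples, where Normal 1 and hypoxia 4 lay side by side (log2 fold change -2.05 with SE 0.39, adjusted p = 0.0002). Cd79b, a signalling chain of the B cell receptor, changed by -1.16 (adjusted p = 0.00169) and Pou2f2, the transcription factor Oct-2, by -1.72 (adjusted p = 5.98e-05). Cxcr5, which guides B cells to follicles, changed by -1.25 (adjusted p = 0.00421). Of 18 tested genes 11 were lower and 1, Cd83, higher, with a median of -1.04, and 5 were lower under all 6 scalings. With TMM factors 3 were higher and 5 lower, and Cd79b (adjusted p = 0.0597) and Cxcr5 (adjusted p = 0.0963) were not called. Without Normal 2, 7 were lower, and with Normal 1 as the only normal sample none was lower. Cr2, the complement receptor CD21, changed by -1.03 (adjusted p = 0.0207) but not past the threshold without hypoxia 1, hypoxia 2, Normal 2 or Normal 3 or with TMM factors, and stood at 0.05, adjusted p = 0.965 with Normal 1 alone.

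The MHC class II genes, which present peptides to helper T cells, did not move as a block. Cd74, the invariant chain that guides class II molecules, had 3945, 5434, 4805 and 4274 in hypoxia samples, against 4723, 669 and 612 in normal samples. The hypoxia samples and Normal 1 were at one level and Normal 2 and Normal 3 at another, and the test was not passed (log2 fold change 1.21 with SE 0.63, adjusted p = 0.117). Without Normal 1 it was called higher (log2 fold change 2.85, adjusted p = 8.20e-07). H2-Aa, the alpha chain of I-A, had 4228, 5010.2, 4366 and 3903 in hypoxia samples, against 4659, 679 and 592 in normal samples and the same split (log2 fold change 1.15 with SE 0.62, adjusted p = 0.123), and without Normal 1 its log2 fold change was 2.78, adjusted p = 1.27e-06. H2-Ab1, the beta chain of I-A, had 141, 144, 158 and 139 in hypoxia samples, against 1527, 197 and 161 in normal samples. It was called lower (log2 fold change -2.10 with SE 0.61, adjusted p = 0.0137), yet this rested on Normal 1, and without that sample the value was -0.30, adjusted p = 0.348. The call was also lost without hypoxia 2 or hypoxia 4, at adjusted p = 0.0704 and 0.0596.

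H2-Eb1, the beta chain of I-E, had 614, 676, 726 and 722 in hypoxia samples, against 993, 1561 and 1021 in normal samples. It just missed the threshold (log2 fold change -0.80 with SE 0.33, adjusted p = 0.0519), and was called lower without Normal 1 (-0.92, adjusted p = 0.0186). H2-Ea-ps, listed on the panel for the I-E alpha locus, had 2295, 1699.9, 2014 and 1853 in hypoxia samples, against 1601, 572 and 239.8 in normal samples and was called higher (log2 fold change 1.29 with SE 0.51, adjusted p = 0.0401), but missed the threshold without hypoxia 1, hypoxia 3, Normal 2 or Normal 3. Several genes that act on class II loading or expression were called lower, and H2-DMa, the partner of H2-DMb2, was not (-0.50, adjusted p = 0.152). H2-Ob, a chain of the loading inhibitor H2-O, stood at 55.8, 57.1, 36.5 and 36.6 in hypoxia samples, against 162, 238 and 228 in normal samples with no overlap (log2 fold change -2.19 with SE 0.28, adjusted p = 1.16e-06). Ciita, the class II transactivator, changed by -1.19 (adjusted p = 0.00518), Ctss, the protease that trims the invariant chain, by -1.06 (adjusted p = 0.00272), Ctsc, a lysosomal peptidase, by -1.30 (adjusted p = 0.000578) and H2-DMb2, a chain of the peptide exchanger H2-DM, by -0.95 (adjusted p = 0.0133). Ciita and H2-DMb2 missed the threshold without Normal 2, at adjusted p = 0.0604 and 0.0717, and H2-DMb2 also without hypoxia 1 or Normal 3. With TMM factors Ciita (adjusted p = 0.0893), Ctss (adjusted p = 0.124), H2-DMb2 (adjusted p = 0.243) and H2-Ab1 (adjusted p = 0.0922) were not called. Of 11 tested genes of the class II list 1 was higher and 6 lower, with a median of -0.95, and with TMM factors 1 was higher and 2 lower. Without Normal 1, 3 were higher.

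Most class I genes, which present peptides to cytotoxic T cells, did not pass the test. B2m, the light chain of class I molecules, had 1908, 1842, 2027 and 2291 in hypoxia samples, against 3086, 1061 and 414 in normal samples, with a spread of the normal samples wider than the hypoxia range (log2 fold change 0.41 with SE 0.50, adjusted p = 0.52). Without Normal 1 it was called higher (1.45, adjusted p = 0.0022). H2-K1, a class I heavy chain, stood at 267, 279, 349 and 351 in hypoxia samples, against 525, 730.4 and 558 in normal samples with no overlap (log2 fold change -0.96 with SE 0.28, adjusted p = 0.00625). Cd1d1, which presents lipids, changed by -1.23 (adjusted p = 0.000967) and Tap1, the peptide transporter, by -0.78 (adjusted p = 0.0245), where Tap1 missed the threshold in the fits without hypoxia 1, hypoxia 3, Normal 2 or Normal 3. The proteasome subunits Psmb7 and Psmc2 were not called, at 0.39 and 0.32, but with TMM factors both were called higher (0.99 and 0.91, adjusted p = 0.00336 and 0.00854). With those factors H2-K1 (-0.37, adjusted p = 0.216) and Tap1 (-0.19, adjusted p = 0.513) were not called. Of 11 tested genes none was higher and 3 lower, with a median of -0.32, of which 1 was lower under all 6 scalings, and with TMM factors 2 were higher and 1 lower. Without Normal 1, 5 were lower and 1 higher.

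Among the JAK and STAT genes of cytokine signalling, Stat4 was the only higher call and 5 of 13 were lower, with a median of -0.46. The share called lower was near the 36.5% of all tested genes. Stat5b, a mediator of growth hormone and cytokine signals, had 26.9, 27.5, 31.4 and 28.7 in hypoxia samples, against 65.5, 76.7 and 60.3 in normal samples and no overlap (log2 fold change -1.23 with SE 0.29, adjusted p = 0.00109). Stat2, which carries interferon signals, changed by -1.55 (adjusted p = 0.0019) and Jak1, a kinase of interferon receptors, by -0.82 (adjusted p = 0.0125). Jak2, the kinase of the erythropoietin receptor, had 116, 127, 108 and 63.6 in hypoxia samples, against 61.0, 74.9 and 61.0 in normal samples. It was not called with the 6 housekeeping genes (log2 fold change 0.65 with SE 0.29, adjusted p = 0.0665) but was called higher under all 5 other scalings (1.26, adjusted p = 0.00148 with TMM factors), with DESeq2, with thinned counts and without hypoxia 4, its lowest hypoxia sample (0.83, adjusted p = 0.0187). With the replicate block its adjusted p was 0.0178. Stat3 was not called, at 0.01. With TMM factors 4 genes of the list were higher and 3 lower, and Jak1 was not called (-0.25, adjusted p = 0.355).

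Of 20 tested interferon response and IRF genes none was higher and 6 were lower, a share not above the 36.5% of all tested genes. The list median was -0.67 against -0.56 over all tested genes. Under all 6 scalings 2 of the list were lower. With TMM factors 2 were higher and 2 lower. Ddx58, the RNA sensor RIG-I, changed by -1.51 (adjusted p = 0.000222) and Irf7, the factor that amplifies interferon production, by -1.42 (adjusted p = 0.000972). Irf1, Irf4 and Irf8 were not called, at 0.56, -0.21 and -0.46, although with TMM factors Irf1 was called higher (1.09, adjusted p = 0.00706) and Irf7 was not called (-0.78, adjusted p = 0.0521). The leukocyte common gene Ptprc, which encodes the CD45 antigen named in the series title, stood at 264, 252, 303 and 304 in hypoxia samples, against 457, 579 and 515 in normal samples. The groups did not overlap and the gene was called (log2 fold change -0.88 with SE 0.28, adjusted p = 0.0119), but with TMM factors its log2 fold change was -0.30, adjusted p = 0.272, and without Normal 2 it was -0.79, adjusted p = 0.0555. Arhgdib, a regulator of small GTPases in blood cells, was lower by a wider margin: it had 236, 187, 235 and 296 in hypoxia samples, against 617, 747 and 673 in normal samples (log2 fold change -1.51 with SE 0.28, adjusted p = 0.000111) and kept its call in all 25 settings. Of 10 tested leukocyte common genes 1, Cd53, was higher and 4 lower, a share near that of all tested genes, with a median of -0.68.

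Of 15 tested integrin and adhesion genes 5 were lower, a share near the 36.5% of all tested genes, and 1, Cd97, was higher. Pecam1, an adhesion molecule of endothelium, platelets and leukocytes, had 34.5, 37.4, 52.5 and 78.8 in hypoxia samples, against 115, 155 and 137 in normal samples (log2 fold change -1.41 with SE 0.31, adjusted p = 0.000599). Icam2, a ligand of leukocyte integrins, changed by -1.71 (adjusted p = 2.37e-05) and separated the groups. Cd55, which limits complement on cell surfaces and binds Cd97, had 121, 195, 137 and 168 in hypoxia samples, against 199, 458 and 341 in normal samples (log2 fold change -1.11 with SE 0.28, adjusted p = 0.00235) and was not called with TMM factors (-0.48, adjusted p = 0.0922). The list median was -0.57 against -0.56 over all tested genes, and without Normal 1 8 genes were lower. In the TGF-beta list the count was 1 higher and 1 lower of 8 tested, median -0.13, with Smad3 the higher and Tgfbi the lower call, against 3 higher and 1 lower with TMM factors. In the other lists the counts were 0 higher and 4 lower of 13 tested, median -0.17 for toll-like and pattern receptors, 0 higher and 5 lower of 13 tested, median -0.72 for apoptosis and cell cycle control, 0 higher and 3 lower of 7 tested, median -1.03 for complement and its regulators, and 1 higher and 2 lower of 8 tested, median -0.48 for dendritic cells. Irak4, a kinase of toll-like receptor signalling, had 11.7, 13.8, 11.4 and 7.31 in hypoxia samples, against 21.5, 31.4 and 31.5 in normal samples with no overlap (log2 fold change -1.40 with SE 0.31, adjusted p = 0.000731). Casp8, the caspase that starts death receptor signalling, changed by -0.81 (adjusted p = 0.0266), Casp1, the inflammatory caspase, by -0.91 (adjusted p = 0.0303), and Bcl2, which protects cells from apoptosis, by -0.95 (adjusted p = 0.0194). Over all tested genes 6.5% were called higher and 36.5% lower, and the list counts stand beside those shares. The scaling moved these counts. With TMM factors 6 toll-like genes were higher and 1 lower, 2 apoptosis genes were higher and 0 lower, no complement gene was called, and 1 dendritic cell gene was higher and 1 lower. Casp8 (adjusted p = 0.47), Casp1 (adjusted p = 0.403) and Bcl2 (adjusted p = 0.426) were then not called. Leaving out 1 sample moved the counts too. Toll-like genes called lower numbered 2 without hypoxia 1 or hypoxia 3 and 1 without Normal 2, and apoptosis genes 1 without hypoxia 1, hypoxia 3 or Normal 3, 2 without hypoxia 2 and 0 without Normal 2. Complement genes called lower numbered 1 without hypoxia 1, Normal 2 or Normal 3 and 5 without Normal 1, and dendritic cell genes 1 without Normal 2. The platelet list had 2 tested genes, Ppbp and Cd9, and the autophagy list 1, Atg16l1. None of these 3 was called with the 6 housekeeping genes, and all 3 were called higher with TMM factors (adjusted p = 0.00643, 0.0389 and 0.00823).

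**Figure D4:**
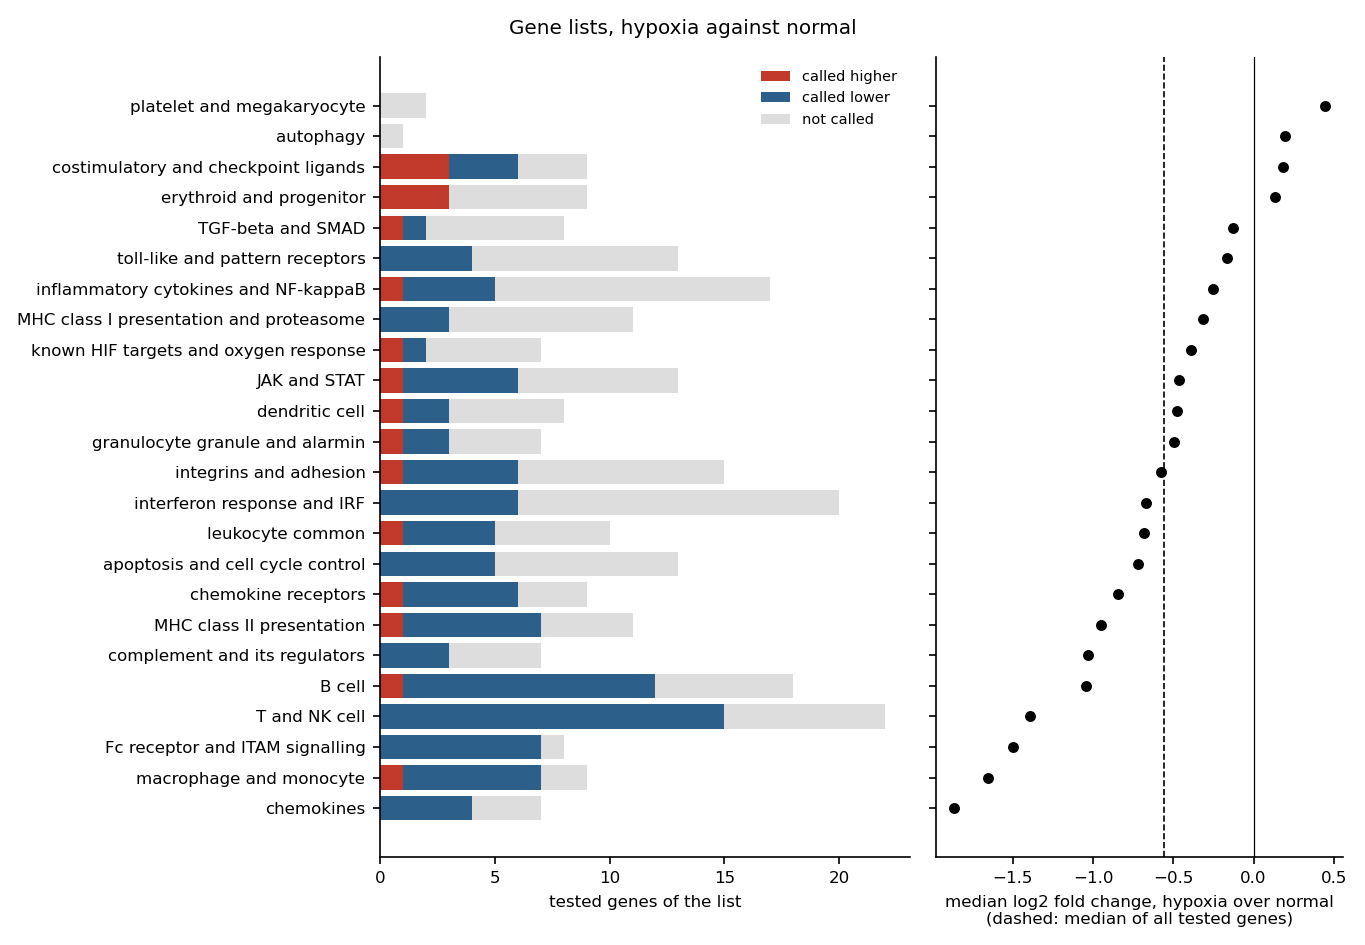
Left, the number of tested genes of each of 24 lists that were called higher, called lower or not called in hypoxia against normal samples; right, the median log2 fold change of each list, with the median of all tested genes, -0.56, as a dashed line. The macrophage, chemokine, Fc receptor and T and NK lists have medians of -1.65, -1.86, -1.50 and -1.40, below that line, and the erythroid list has one of 0.13, above it. Lists share some genes and cover tested members only.

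The 4 hypoxia samples did not vary alike. Among 192 genes with a mean scaled count of 20 or more, a sample that stood furthest from the median of the other 3 by at least 2-fold was hypoxia 4 in 17 genes, hypoxia 2 in 12, hypoxia 1 in 6 and hypoxia 3 in 1. Hypoxia 2 was high in Tal1, Tfrc, Prim1, Cd24a and C1qb and low in Cxcr5, Cd83 and Cr2. Its Cd24a count was 1103, against 354, 535 and 449 in the other 3 samples. Hypoxia 4 was low in Phlpp1, Smad3 and Cd86 and high in lymphocyte genes such as Lck, Cd22 and Tcf7.

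**Figure D5:**
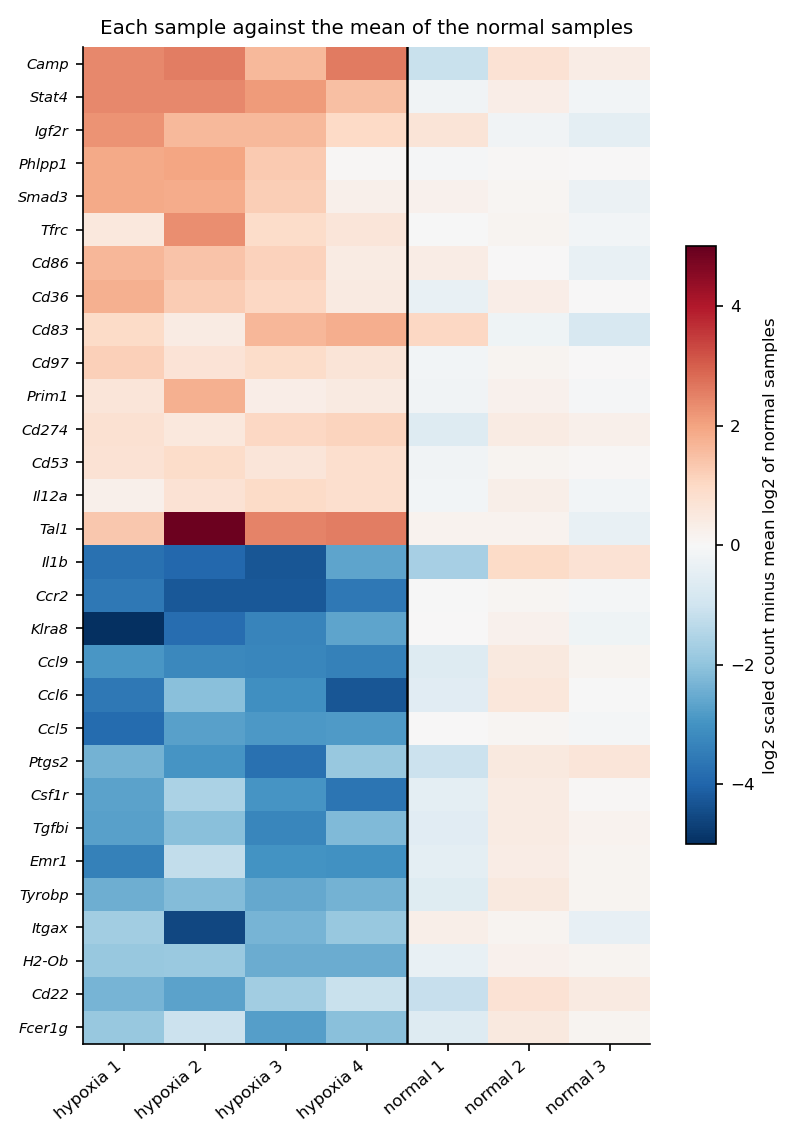
Log2 scaled count minus the mean log2 scaled count of the normal samples for 30 called genes (rows) in the hypoxia samples (left columns) and normal samples (right columns); red is higher, blue is lower, and colours stop at 5 log2 units in either direction. Hypoxia 2 is the reddest cell of Tfrc and Tal1, hypoxia 4 is near 0 in Phlpp1 and Smad3, and Normal 1 is bluer than the other normal samples in Il1b and Cd22.

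Set beside the 4 blood loss samples, which are shallower at total counts of 7016 to 31006, 28 genes were called, against 18 higher and 101 lower in the comparison with normal samples. Of the 277 genes 10.1% were called, 0.361% (1 gene) were higher and 9.75% (27 genes) lower after hypoxia, and the count again depended on scaling, with 8 higher and 13 lower under TMM factors and 95 higher and 3 lower under median-of-ratios factors over all genes. It depended on the treatment of low counts as well: 5 were higher and 230 lower with no count filter, and 3 higher and 150 lower with counts under 20 set to 20, more than the 34 and 162 and the 11 and 59 called against normal samples in those settings. Without blood loss 2 the lower calls numbered 9 and without Normal 1, which enters the shared spread, 43. This comparison uses the same hypoxia samples as the one above. Irf1, a transcription factor induced by interferon gamma, had 233, 319.7, 409.7 and 302 in hypoxia samples, against 178, 91.6, 126 and 92.8 in blood loss samples and was higher (log2 fold change 1.39 with SE 0.29, adjusted p = 0.00375). Icam1, an adhesion molecule induced by inflammation, had 7.58, 3.93, 13.7 and 15.8 in hypoxia samples, against 52.3, 40.7, 59.3 and 39.4 in blood loss samples (log2 fold change -2.09 with SE 0.38, adjusted p = 0.00105). Ccr2 had 6.20, 3.93, 3.99 and 6.19 in hypoxia samples, against 21.5, 30.5, 37.1 and 18.3 in blood loss samples (log2 fold change -2.25 with SE 0.37, adjusted p = 0.000446). These 3 genes were called under all 6 scalings, and all others were not. Sample factors were 0.325, 0.393, 0.135 and 0.711 in blood loss samples, against 1.45, 1.02, 1.75 and 1.78 in hypoxia samples. A small raw count therefore gives a larger scaled count in blood loss samples. Raw counts of Ccr2 were under 20 in every sample of both groups, and those of Icam1 were also low. Their differences rest on counts near the floor. Tfrc had 184, 642, 239 and 193 in hypoxia samples, against 507, 232, 467 and 378 in blood loss samples and Camp 292, 327, 169 and 331 in hypoxia samples, against 547, 283, 326 and 530.0 in blood loss samples, and neither was called, with log2 fold changes of -0.33 and -0.60.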

How the data were processed

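The nCounter panel was read in splenic Ter-119+ cells of 12 samples, grouped by the condition that the labels give. The authors deposited raw counts, whole numbers of 1 or more, for 547 endogenous and 14 housekeeping genes. The authors also deposited a normalized signal, which equals the raw count over the DESeq2 median-of-ratios size factor (largest relative difference 1.1e-15, computed here), and a log2 value table within 0.005 of log2 of that signal plus 1. How background was handled, and with which counting software, is not given in the sources used here. Control probes were not used here, so no background level was subtracted.

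One edgeR 4.0.16 model (R 4.3.3, robust quasi-likelihood test, no term other than group) took the raw counts of 11 samples: 4 hypoxia, 4 blood loss and 3 normal. Each sample was scaled by the geometric mean of Rpl19, Ppia, Polr2a, Oaz1, Gapdh and Eef1g, the 6 housekeeping genes that averaged at least 100 raw counts, and these factors were set to a geometric mean of 1. An endogenous gene entered the test when it reached a raw count of 20 in at least 3 of the 7 hypoxia and normal samples, and its call used a Benjamini-Hochberg threshold of 0.05 over all 277 genes. Each standard error is the absolute log2 fold change over the square root of its F statistic. The model was also run on simulated data with known fold changes, the outcome of which is not reported here. The simulated housekeeping genes did not change between groups, so that run cannot address the choice of scaling. Alternatives were 5 other scalings, DESeq2 1.42.0, other filters, thinning, other sample sets, a replicate block and leaving out each sample. Except under the other filters, each alternative kept the 277 genes tested in the main fit.

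The members and the 24 gene lists were chosen with earlier results of these data known. The naming rule took, among genes called under all 6 scalings and reaching 20 counts throughout at least 1 group, the 15 at either end of the log2 fold changes. It added the 13 tested members of 16 set genes and up to 4 genes per list by smallest p. Other named genes, such as Plau, H2-Ea-ps, Cd44, Il7r, Gzma and Icam1, were chosen after their values were seen. Symbols were matched to RefSeq, 272 directly and 5 through a synonym. Some genes are not reported here.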

Additional observations from a re-analysis of the deposited data

Results flagged for a closer look

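Named genes, list means, total counts and library factors of the 4 hypoxia samples gave 158 groups of 4 values. In 9 groups a sample was set apart from the other 3 by more than Dixon's 95% limit. Chance flags about 1 in 20, or 7.9. Only the hypoxia samples were examined in this way. Hypoxia 2 was the highest in 4: Tfrc at 642, Tal1 at 87.6, Prim1 at 53.1 and Emr1 at 27.5 scaled counts. Hypoxia 4 was the highest in 4: Tcf7 at 48.9 and Thy1 at 22.5 scaled counts, the mean log2 level of the T and NK cell list at 4.42 and that of the chemokine receptor list at 5.84. Hypoxia 3 was the highest in Ctss, at 196 scaled counts. Tfrc and Prim1 lost their calls without hypoxia 2, and Tal1, Emr1, Tcf7, Thy1 and Ctss kept theirs without the sample that stood apart. Those fits kept the genes tested in the main fit, which Tal1 had entered through hypoxia samples alone. Emr1 and Thy1 had entered it with the help of the normal samples where they are high.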

How the results depend on the processing

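Against the 18 genes called higher and 101 lower in hypoxia than in normal samples, the higher and lower counts were 56 and 53 with TMM factors, 50 and 65 with median-of-ratios factors over all genes, 54 and 55 with the same over the tested genes, 19 and 80 with the full 14 housekeeping genes, 22 and 82 with housekeeping genes without Rpl19, 55 and 55 with DESeq2 (which gave H2-Ab1 no adjusted p), 34 and 162 with no count filter, 17 and 84 with the filter at 4 samples, 11 and 59 with counts under 20 set to 20, 17 and 99 with thinned counts, 23 and 138 with 12 samples with Normal 4, 21 and 102 with the replicate block and 4 and 30 with Normal 1 as the only normal sample, and 16 and 100 with only the hypoxia and normal samples fitted. Leaving out 1 sample gave 10 to 18 higher and 69 to 123 lower, with the lowest counts without Normal 3 and Normal 2 and 123 without Normal 1. Against 1 higher and 27 lower in hypoxia than in blood loss samples, they were 8 and 13 with TMM factors, 95 and 3 with median-of-ratios factors over all genes, 8 and 13 with the same over the tested genes, 5 and 2 with the full 14 housekeeping genes, 4 and 21 with housekeeping genes without Rpl19, 9 and 15 with DESeq2 (which gave H2-Ab1 no adjusted p), 5 and 230 with no count filter, 1 and 12 with the filter at 4 samples, 3 and 150 with counts under 20 set to 20, 2 and 26 with thinned counts, 4 and 36 with 12 samples with Normal 4, 1 and 28 with the replicate block and 2 and 34 with Normal 1 as the only normal sample, with 1 to 4 and 9 to 43 on leaving out 1 sample. The fit with Normal 1 alone was chosen after seeing the data and kept 4 of the 18 higher and 28 of the 101 lower calls, where 1 normal sample leaves a wider error by construction. The signs of 3 called genes turned in it, Ccrl2 to 0.21, Bid to 0.75 and Cr2 to 0.055, and the cause was not tested. TMM moved the median of all genes by 0.61 on the log2 scale, and the cause of that gap was not tested. Of 3284 values of single genes under the alternatives 2899 kept their direction and side of the threshold, 284 lost a call, 98 gained one and 3 turned. In the 11 fits without 1 sample 9 of 18 higher and 67 of 101 lower calls were kept. That block joins samples that share only a number: deviations of same-numbered hypoxia and normal samples correlated at 0.11, -0.02 and -0.03 across genes, and not every sample correlated best with its own number. Counts under 20 in hypoxia samples limit the size of the decreases.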
